A study of Homo sapiens with 6 samples.

Results

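The mitochondrially encoded genes are the 37 genes whose symbol starts with MT-, out of 57820 genes in each count file: 13 mRNAs, 2 rRNAs and 22 tRNAs. Membership was set by symbol alone, with earlier results of these data known. All 37 carried the same versioned Ensembl identifier in the files and in GENCODE 29. RNA sequencing of total RNA had been done in C4-2B-ENZR, an enzalutamide-resistant human prostate cancer cell line, after transfection with a negative-control siRNA (3 libraries) or an siRNA against RUVBL1 (3 libraries), numbered 1 to 3 in each group. RUVBL1 and its partner RUVBL2 are ATPases of chromatin-remodelling complexes and also help to assemble other large protein complexes. All libraries came from this one resistant line, and the sources used here do not give the siRNA sequence, its dose or the time of harvest. No label ties a replicate to a culture of its own, so a p-value may reflect technical spread alone.

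Mitochondrial DNA is a small circular genome whose strands are transcribed into long RNAs that span many genes. Most mRNAs and both rRNAs are flanked by tRNAs, and cutting at the tRNAs by RNase P and the nuclease ELAC2 releases the separate RNAs. The mRNAs are then polyadenylated inside the organelle, and for several of them the added A residues complete a stop codon that the gene itself leaves unfinished. All the encoded proteins are core subunits of the respiratory chain or the ATP synthase, and the rRNAs and tRNAs serve the mitochondrial ribosome that makes them. The remaining subunits of these complexes are encoded in the nucleus.

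The 3′ ends of the 13 genes are shown first because the later comparison between mRNAs is set beside them. These are the last 24 bases of each gene in the GENCODE 29 transcript sequences, in gene order and as the RNA reads, with the stop codon, or the part of it that the gene encodes, in capitals.
MT-ND1: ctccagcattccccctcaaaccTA
MT-ND2: ccccttttatactaataatcttaT
MT-CO1: gaacccgtatacataaaatctAGA
MT-CO2: atagggcccgtatttaccctaTAG
MT-ATP8: cattcattgcccccacaatccTAG
MT-ATP6: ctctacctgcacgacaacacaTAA
MT-CO3: tctccatctattgatgagggtctT
MT-ND3: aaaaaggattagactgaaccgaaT
MT-ND4L: aacctaaacctactccaatgcTAA
MT-ND4: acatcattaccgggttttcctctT
MT-ND5: ctaaccctactcctaatcacaTAA
MT-ND6: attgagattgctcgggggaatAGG
MT-CYB: aaaacaaaatactcaaatgggccT
In 6 genes (MT-ND1, MT-ND2, MT-CO3, MT-ND3, MT-ND4 and MT-CYB) the gene model stops after the first or second base of the stop codon. In the other 7 the stop codon is complete, and in MT-ATP6 its last base is also the first base of MT-CO3.

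Pairs of neighbouring mRNAs also share bases, which matters for counting. MT-ATP8 and MT-ATP6 lie on one mRNA and overlap by 46 bases, shown in capitals at the end of the first and the start of the second gene.
MT-ATP8 end: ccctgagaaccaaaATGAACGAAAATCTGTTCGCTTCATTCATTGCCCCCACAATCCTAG
MT-ATP6 start: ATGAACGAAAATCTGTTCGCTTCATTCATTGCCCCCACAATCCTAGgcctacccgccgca
MT-ND4L and MT-ND4, also on one mRNA, share 7 bases.
MT-ND4L end: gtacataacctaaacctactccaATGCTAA
MT-ND4 start: ATGCTAAaactaatcgtcccaacaattata
The counter and its strand setting are not given, so reads from shared stretches, or from the opposite strand of a gene, may not have been told apart. This applies most to MT-ATP8, where the shared stretch is a large part of a gene of 207 bases, and to MT-ND6, the one mRNA encoded on the other strand.

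Library totals ran from 18985542 to 36054489 counts. RUVBL1 (ENSG00000175792.7) had 178, 177 and 181 CPM (counts scaled to a library of 1000000 with edgeR's TMM factors) in control replicates 1 to 3 and 103, 99.4 and 103 CPM after its siRNA, the direction the labels imply. All 9 luminal prostate markers examined lay above 1 CPM in every library, while the basal keratin genes KRT5 and KRT14 and the stromal and T-cell genes DCN, LUM and CD3E were listed at 0. The summed CPM of 8 stromal, endothelial and immune markers (of library totals) was 21 to 22.9 in the control group and 16.7 to 19 after RUVBL1 siRNA. COL1A1 and CD68 made up most of it in each library, and its part in the results was not tested. Both replicate 1 libraries stand apart, because many non-coding genes, all mitochondrial tRNAs among them, are listed at 0 there and have counts in replicates 2 and 3.

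Mitochondrially encoded RNA took a smaller share of all counts after RUVBL1 siRNA. The 37 genes together held 13.8%, 13.5% and 13.5% of the counts in control replicates 1 to 3 and 11.6%, 11.3% and 11.3% in RUVBL1 siRNA replicates 1 to 3. Every RUVBL1 siRNA library lay below every control library. The mean fell by 2.22 percentage points, from 13.6% ± 0.174 to 11.4% ± 0.148 (SD, n = 3 each; exact two-sided permutation test p = 0.1, the smallest that the 20 assignments of 3 against 3 libraries allow). Nearly all of this share was mRNA: the 13 mRNAs alone gave the same percentages to 3 digits, and the tRNAs summed to at most 165 counts and the rRNAs to at most 1 count in a library. In bulk RNA, a change in the mix of cells and a change of mitochondrial RNA per cell cannot be told apart. A share is also relative, so a change in the amount of the other RNA cannot be told apart from these.

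Each respiratory complex contributed to the difference. The 3 complex IV mRNAs, for cytochrome c oxidase, took the largest share, 6.68% ± 0.134 of all counts in the control group and 5.62% ± 0.0929 after RUVBL1 siRNA. The 7 complex I mRNAs, for NADH dehydrogenase, took 4.53% ± 0.0542 and 3.81% ± 0.0545. MT-CYB, the only mitochondrial gene of complex III, took 1.29% ± 0.0119 and 1.07% ± 0.0171. The 2 mRNAs of complex V, the ATP synthase, took 1.14% ± 0.0250 and 0.921% ± 0.0152 (all SD, n = 3). None of these ranges overlapped between groups, and each exact permutation p was 0.1.

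**Figure D1:**
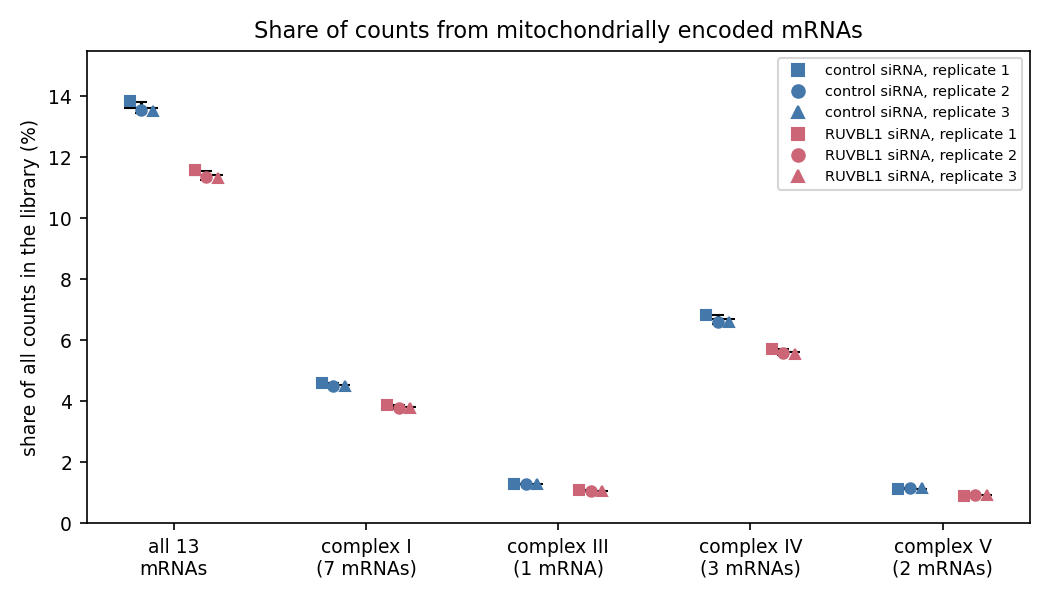
Share of all counts in the library (%, y axis) held by the 13 mitochondrially encoded mRNAs and by the mRNAs of each respiratory complex, 1 point per library, with the mean and SD (n = 3) in black. For all 13 mRNAs the control libraries lie between 13.5% and 13.8% and the RUVBL1 siRNA libraries between 11.3% and 11.6%.

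All 13 mRNAs fell in the edgeR quasi-likelihood test (adjusted p under 0.05 over all 16006 genes tested), by 0.22 to 0.47 on the log2 scale. Across all tested genes, 23.1% were called lower. The median log2 fold change of the 13 was -0.38, against 0.01 for all genes tested, and 9.95% of tested genes had a change below that median. For each of the 13 the RUVBL1 siRNA libraries all lay below the control libraries, a pattern that 27.4% of tested genes had, while 25.3% had the reverse pattern. When only total counts were used for scaling, the changes were smaller, from -0.12 to -0.37 with a median of -0.28 (0.11 for all genes), and all 13 were still called. Leaving every mitochondrial gene out of the scaling gave a median of -0.38.

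Of the complex IV genes, MT-CO1 (ENSG00000198804.2) encodes the catalytic subunit that reduces oxygen and had the most counts of any member. It had 43337, 42319 and 42128 CPM in control replicates 1 to 3 and 33358, 32575 and 32573 CPM in RUVBL1 siRNA replicates 1 to 3. The groups were far apart compared with their spread, and the level fell to 77.1% of the control mean (log2 fold change -0.38, SE 0.0134, edgeR adjusted p = 1.22e-09). MT-CO2 (ENSG00000198712.1), the subunit that accepts electrons from cytochrome c, had 10592, 10308 and 10330 CPM in the control libraries and 8104, 7933 and 7875 after RUVBL1 siRNA. It fell to 76.6%, close to MT-CO1 (log2 fold change -0.39, SE 0.0164). MT-CO3 (ENSG00000198938.2), the remaining core subunit, had 16365, 16046 and 16253 CPM in the control libraries and 13621, 13455 and 13490 after RUVBL1 siRNA. It fell less than the other two, to 83.4% (log2 fold change -0.26, SE 0.0127).

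The complex I genes encode the membrane arm of NADH dehydrogenase, which pumps protons, and they fell by unequal amounts. MT-ND5 (ENSG00000198786.2), a large pump subunit, had 9485, 9374 and 9283 CPM in the control libraries and 7134, 6983 and 6921 after RUVBL1 siRNA, a fall to 74.8% (log2 fold change -0.42, SE 0.0160). MT-ND6 (ENSG00000198695.2) had 2037, 2130 and 2152 CPM in the control libraries and 1519, 1568 and 1577 after RUVBL1 siRNA, a fall to 73.8% (log2 fold change -0.44, SE 0.0245). These 2 neighbouring genes, encoded on opposite strands, had the largest falls within complex I. MT-ND4 (ENSG00000198886.2), another pump subunit, had 18065, 17748 and 17660 CPM in the control libraries and 14087, 13825 and 13733 after RUVBL1 siRNA (log2 fold change -0.36, SE 0.0141). MT-ND4L (ENSG00000212907.2), on the same mRNA, had 1834, 2006 and 2034 CPM in the control libraries and 1454, 1512 and 1533 after RUVBL1 siRNA (log2 fold change -0.39, SE 0.0437). In each group its replicate 1 was the lowest of the 3 libraries.

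The other 3 complex I genes fell less. MT-ND1 (ENSG00000198888.2), which lies next to the quinone site, had 6208, 6033 and 5974 CPM in the control libraries and 5084, 4880 and 4888 after RUVBL1 siRNA (81.5% of control, log2 fold change -0.29, SE 0.0206). MT-ND2 (ENSG00000198763.3), a pump subunit, had 7536, 7495 and 7453 CPM in the control libraries and 6251, 6188 and 6102 after RUVBL1 siRNA (82.5%, log2 fold change -0.28, SE 0.0151). MT-ND3 (ENSG00000198840.2), a small subunit, fell least of all 13, from 2015, 2094 and 2119 CPM to 1730, 1812 and 1793 CPM (85.7%, log2 fold change -0.22, SE 0.0246, edgeR adjusted p = 1.26e-05). With total counts as the only scaling its log2 fold change was -0.12.

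MT-CYB (ENSG00000198727.2) encodes cytochrome b, the quinol-oxidising subunit of complex III. It had 13348, 13300 and 13282 CPM in the control libraries, a spread of 0.258% of the mean, and 10439, 10226 and 10238 CPM after RUVBL1 siRNA (log2 fold change -0.37, SE 0.0133). In complex V, MT-ATP6 (ENSG00000198899.2), a subunit of the proton channel, had 9375, 9635 and 9683 CPM in the control libraries and 7200, 7332 and 7369 after RUVBL1 siRNA (log2 fold change -0.39, SE 0.0166). MT-ATP8 (ENSG00000228253.1), an accessory membrane subunit, had 2024, 2278 and 2348 CPM in the control libraries and 1497, 1633 and 1686 after RUVBL1 siRNA. Its log2 fold change of -0.47 was the lowest of the 13, but with an SE of 0.0804 and an edgeR adjusted p of 0.0111 it was also the least precise, since replicate 1 lay low in both groups.

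**Figure D2:**
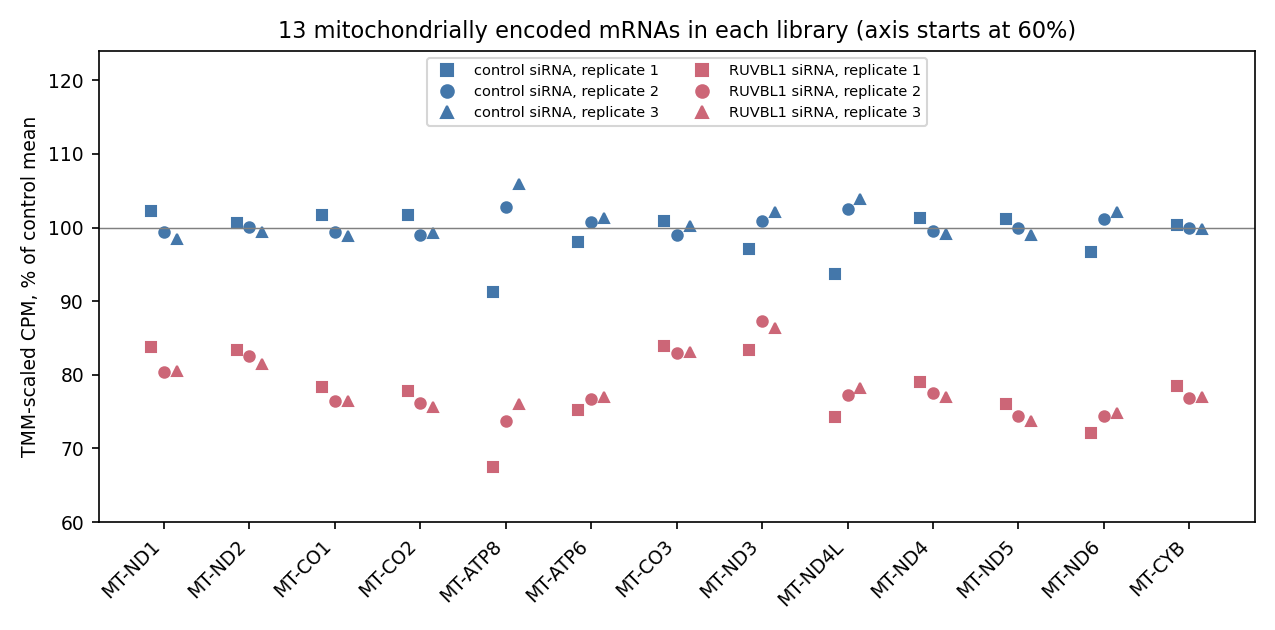
TMM-scaled CPM of each mitochondrially encoded mRNA in each library as a percentage of the gene's control mean (y axis, starting at 60%), in gene order, 1 point per library. All RUVBL1 siRNA libraries lie below all control libraries for each gene, with group means from 72.4% (MT-ATP8) to 85.7% (MT-ND3) of control, and the replicate 1 libraries (squares) lie low for MT-ATP8, MT-ND3, MT-ND4L and MT-ND6.

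Levels of different genes were compared per length, as CPM per kilobase of the GENCODE 29 gene. In the control libraries they spanned 6.89-fold. MT-CO1 was highest at 27623 ± 422 CPM per kilobase, followed by MT-CO3 at 20691 ± 206, MT-CO2 at 15219 ± 231, MT-ATP6 at 14044 ± 243, MT-ND4 at 12935 ± 155, MT-CYB at 11665 ± 30.1 and MT-ATP8 at 10710 ± 824 (SD, n = 3). The lower end held MT-ND2 at 7192 ± 39.8, MT-ND4L at 6594 ± 364, MT-ND1 at 6351 ± 127, MT-ND3 at 5999 ± 157, MT-ND5 at 5177 ± 55.7 and MT-ND6 at 4011 ± 116. By this measure the complex IV genes thus had the highest levels and, apart from MT-ND4, the complex I genes had the lowest. The control ranges of neighbours in this order overlapped only for MT-ND4L and MT-ND1.

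Genes that share an mRNA did not have equal levels per length, so the order above need not be an order of RNA amounts. The level of MT-ATP8 was 0.710, 0.778 and 0.798 of that of MT-ATP6 in the control libraries and 0.684, 0.733 and 0.753 after RUVBL1 siRNA. The level of MT-ND4L was 0.471, 0.525 and 0.534 of that of MT-ND4 in the control libraries and 0.479, 0.507 and 0.518 after RUVBL1 siRNA. In both pairs the shorter gene had the lower level in every library, the replicate 1 library was the lowest of its group, and the groups overlapped (exact two-sided permutation p = 0.3 and 0.7). Between libraries of the same number, the ratio of MT-ATP8 to MT-ATP6 was lower after RUVBL1 siRNA in each of 3 pairs, whereas that of MT-ND4L to MT-ND4 was higher in replicate 1 and lower in replicates 2 and 3. The ratio of MT-ND6 to MT-ND5, which lie on opposite strands, also overlapped between groups, at 0.741, 0.784 and 0.800 in the control libraries and 0.735, 0.775 and 0.786 after RUVBL1 siRNA (exact two-sided permutation p = 0.6). It too was lower in each of the 3 same-numbered pairs, a pattern that was not tested. No label pairs these libraries, and correlation over the mitochondrial mRNAs did not pair replicate 2 by number.

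Whether the mRNAs fell unequally was examined with the summed counts of the 13 as the library size, so that a gene that moves with the sum has a log2 fold change of 0. Each gene is part of that sum, so higher and lower values are not independent: some that are higher leave others lower. In this edgeR fit 4 mRNAs were higher and 2 lower, and 7 were not called. Across all genes tested, 64.2% were called higher and 3.37% lower relative to that sum. MT-ND3 was higher by 0.13 (SE 0.0292, edgeR adjusted p = 0.00200), MT-CO3 by 0.09 (SE 0.0119, adjusted p = 2.16e-05), MT-ND2 by 0.08 (SE 0.0141, adjusted p = 0.000399) and MT-ND1 by 0.06 (SE 0.0175, adjusted p = 0.00851). MT-ND5 was lower by a log2 of -0.06 (SE 0.0139, adjusted p = 0.00136) and MT-ND6 by -0.08 (SE 0.0290, adjusted p = 0.0259).

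The same values can be read as shares of the mRNA sum. MT-CO3 made up 11.5%, 11.4% and 11.6% of it in the control libraries and 12.2%, 12.2% and 12.3% after RUVBL1 siRNA. MT-ND2 made up 5.30%, 5.32% and 5.30%, then 5.61%, 5.63% and 5.56%. MT-ND5 made up 6.67%, 6.66% and 6.60%, then 6.40%, 6.35% and 6.30%. For these 3 genes the groups did not overlap, and the exact permutation p was 0.1 for each. The same held for MT-ND1 and MT-ND3, and for MT-CO1, MT-CO2 and MT-CYB, which were not called. The shares of MT-ND6, called lower, overlapped between groups (exact permutation p = 0.2). Those of MT-ATP8, MT-ATP6, MT-ND4L and MT-ND4, not called, overlapped too. Separation of the shares thus did not follow the calls. MT-CO1 was the largest part of the sum, at 30.2% ± 0.278 and 29.7% ± 0.158 (SD, n = 3), and was not called (log2 -0.02, adjusted p = 0.103). With the gene left out of its own sum, the mean log2 change was -0.029 for MT-CO1 and 0.105 for MT-CO3.

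The MT-ND6 call was lost when control replicate 2 or 3 was left out (edgeR adjusted p = 0.106 and 0.115), and when replicate 1 or 2 of the siRNA group was (0.0926 and 0.0502). The other 5 calls held with any single library left out. A fit that blocked on the replicate number called 10 of the 13 in place of 6, with MT-CO1, MT-CO2, MT-ATP6 and MT-ATP8 added as lower (adjusted p = 0.0303, 0.0330, 0.00406 and 0.00859). In that fit 70.4% of all tested genes were called higher and 3.93% lower.

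Set beside the 3′ ends printed above, all 4 mRNAs that were higher relative to the sum have an incomplete stop codon. The 2 other genes of that kind, MT-ND4 and MT-CYB, lay near 0 at -0.0053 and -0.014. The 7 genes with a complete stop codon in the gene model ranged from -0.11 to -0.020 and included both mRNAs called lower. This grouping was chosen after the values were seen, the genes share their libraries, and no test was made of it. The full separation held in 3 of 8 alternative fits and in 0 of 3 replicate numbers taken alone: with replicates 2 and 3 alone, for example, MT-CYB (-0.020) lay below MT-CO1 (-0.017). MT-ATP6, whose stop codon is complete only with the base it shares with MT-CO3, had -0.034. Set with the incomplete genes instead, it would lie below MT-CO1 (-0.020), MT-CO2 (-0.030) and MT-ND4L (-0.030), and the groups would overlap. The separation thus depends on how MT-ATP6 is labelled.

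**Figure D3:**
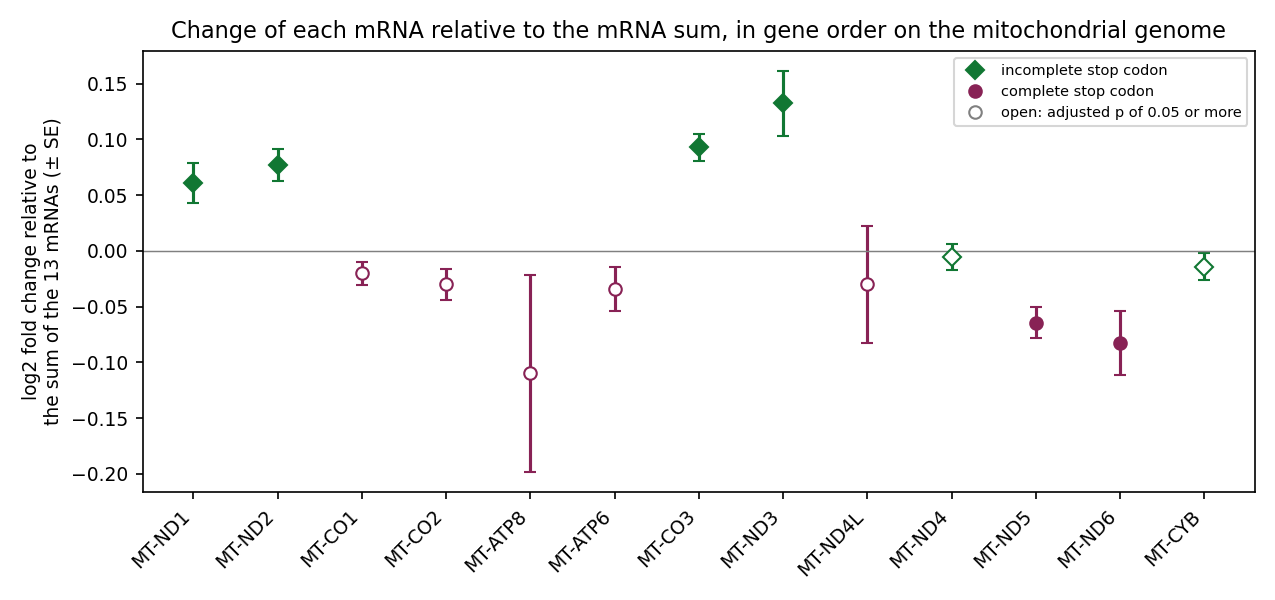
Log2 fold change of each mRNA relative to the sum of the 13 mRNAs (y axis, with its SE from edgeR), in gene order along the mitochondrial genome. Diamonds mark genes with an incomplete stop codon, circles those with a complete one, and open symbols an adjusted p of 0.05 or more: MT-ND1, MT-ND2, MT-CO3 and MT-ND3 lie above 0, MT-ND5 and MT-ND6 below.

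The mitochondrial genes were then set against the nuclear genes of the same complexes, as the ratio of summed counts in each library, in which library size cancels. For complex I the 7 mitochondrial genes had 8.17, 7.86 and 7.77 times the counts of 37 nuclear genes in the control libraries and 6.43, 6.28 and 6.21 times after RUVBL1 siRNA. For complex IV, 3 mitochondrial and 11 nuclear genes gave 18.4, 17.6 and 17.5 times, then 14.9, 14.6 and 14.4 times. For complex V, 2 mitochondrial and 17 nuclear genes gave 2.04, 2.10 and 2.11 times, then 1.53, 1.59 and 1.58 times. For complex III, MT-CYB had 5.41, 5.21 and 5.14 times the counts of 9 nuclear genes, then 4.31, 4.13 and 4.13 times. Every ratio was lower in each RUVBL1 siRNA library than in each control library. The log2 ratio changed by -0.33 for complex I, -0.33 for complex III, -0.29 for complex IV and -0.41 for complex V, each with an exact two-sided permutation p of 0.1 (0.1 also after Benjamini-Hochberg adjustment over the 4 complexes).

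**Figure D4:**
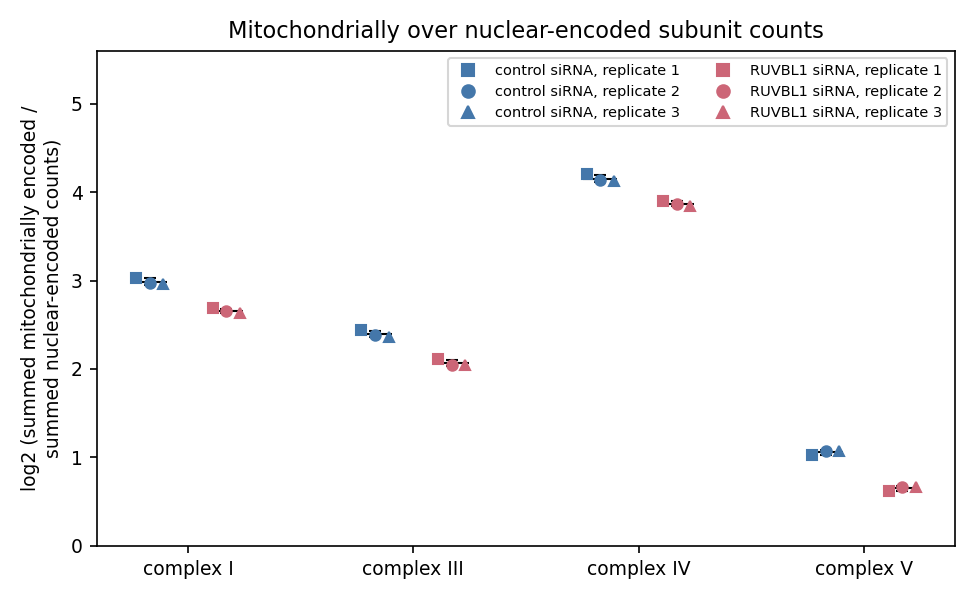
Log2 of the summed counts of mitochondrially encoded subunits over those of nuclear-encoded subunits (y axis) for 4 complexes, 1 point per library, with the mean and SD (n = 3) in black. The RUVBL1 siRNA libraries lie below the control libraries in each complex, by 0.29 (complex IV) to 0.41 (complex V) between the means.

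The nuclear subunit genes themselves moved in both directions. In complex I, 5 of 37 rose and 10 fell, with a median log2 fold change of -0.0040. NDUFA9 fell by 0.31, NDUFA13 by 0.16 and NDUFA6 by 0.16, while NDUFA5 rose by 0.26. In complex III, 1 of 9 rose and 3 fell, and CYC1, which encodes cytochrome c1, fell by 0.30, UQCRC2 by 0.22 and UQCR10 by 0.07. The 1 that rose was UQCRFS1, for the Rieske iron-sulfur protein, by 0.08. In complex IV, 1 of 11 rose and 4 fell: COX6A1 fell by 0.27, COX7A2 by 0.18, NDUFA4 by 0.13 and COX6B1 by 0.08. Complex V went the other way, with 8 of 17 that rose and 1 that fell: ATP5MC2, a gene for the rotor ring, rose by 0.29, ATP5MG by 0.15 and ATP5PD by 0.13, whereas the catalytic subunit gene ATP5F1B fell by 0.16. Of the 4 genes of complex II, which has no mitochondrial gene, SDHD rose by 0.08, and SDHA (log2 -0.05), SDHC (0.04) and SDHB (-0.06) were not called.

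These nuclear counts depended on the scaling. In the fit above, 19.1% of all tested genes were called higher and 23.1% lower. With total counts as the only scaling, 31.1% of all tested genes were called higher and 14.4% lower, and 22 complex I genes rose and 3 fell, 5 and 2 did in complex III, 7 and 1 in complex IV, 14 and 1 in complex V and 2 and 0 in complex II. The calls of NDUFA6, UQCR10, COX6B1, NDUFA4 and COX7A2 were lost under that scaling (edgeR adjusted p = 0.0768, 0.287, 0.384, 0.401 and 0.0567), and the fold changes of UQCR10 and COX6B1 became positive (0.03 and 0.02). The other falls became smaller, at -0.06 for NDUFA13, -0.13 for UQCRC2, -0.17 for COX6A1 and -0.06 for ATP5F1B, and the rises larger, at 0.25 for ATP5MG, 0.23 for ATP5PD, 0.18 for SDHD and 0.18 for UQCRFS1. With the replicate block, 23.4% of all tested genes were called higher and 25.6% lower, and 10 complex I genes rose and 13 fell, 3 and 3 did in complex III, 1 and 5 in complex IV, and 10 and 2 in complex V. The call of UQCRFS1 was lost in replicates 2 and 3 alone (adjusted p = 0.140), and no complex III gene was called higher when control replicate 1, or replicate 1 or 2 of the siRNA group, was left out, and a complex II gene was called lower without replicate 1 of the siRNA group.

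Of 24 genes of mitochondrial DNA transcription and maintenance, 4 rose and 6 fell, with a median log2 fold change of -0.03. Across all tested genes, 19.1% were called higher and 23.1% lower, so these counts lay near the background. With total counts as the only scaling 9 rose and 5 fell, where 31.1% of all tested genes were called higher and 14.4% lower. POLRMT, the mitochondrial RNA polymerase gene, fell by 0.24, from 51.8 ± 1.95 to 43.9 ± 1.66 CPM (SD, n = 3 each; edgeR adjusted p = 0.000456), and by 0.14 with total counts as the only scaling. TFAM, which encodes the factor that packages mitochondrial DNA and starts its transcription, had 64.2 ± 1.40 and 64.2 ± 0.686 CPM and was not called (log2 -0.0017). With total counts as the only scaling it was called higher, by 0.10. The initiation factor gene TFB2M was not called (log2 -0.11, edgeR adjusted p = 0.0992). POLG, the DNA polymerase gene, fell by 0.32. MTERF4, needed for ribosome assembly in the organelle, fell by 0.53 and ATAD3A, an inner membrane ATPase gene, by 0.50, while the protease gene LONP1 rose by 0.18 (0.28 with total counts as the only scaling).

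Genes of mitochondrial RNA processing, modification and decay were more often lower than higher: of 46 tested, 22 fell and 5 rose, with a median log2 fold change of -0.09. Across all tested genes, 23.1% were called lower and 19.1% higher. With total counts as the only scaling 13 fell and 8 rose, with a median of 0.0071 (14.4% and 31.1% of all tested genes). With the replicate block 24 fell and 5 rose (25.6% and 23.4% of all tested genes). The number that rose was 3 when control replicate 2 or 3, or replicate 2 or 3 of the siRNA group, was left out. LRPPRC, whose protein binds and stabilises mitochondrial mRNAs, fell by 0.21, from 144 ± 2.46 to 125 ± 2.02 CPM (SD, n = 3 each). The gene of its partner SLIRP rose by 0.08 (edgeR adjusted p = 0.0373). Of the processing nucleases, ELAC2 fell by 0.18 and TRMT10C, a subunit of mitochondrial RNase P, by 0.23. With total counts as the only scaling these 4 were still called, with log2 fold changes of -0.11 for LRPPRC, 0.18 for SLIRP, -0.08 for ELAC2 and -0.13 for TRMT10C. PNPT1, of the RNA-degrading complex, fell by 0.27 (by 0.17 under that scaling), and its helicase partner SUPV3L1 was not called (log2 -0.07, edgeR adjusted p = 0.323), though it was in replicates 2 and 3 alone (0.00644). The poly(A) polymerase gene MTPAP fell by 0.14 (edgeR adjusted p = 0.0445), and this call was lost with total counts as the only scaling (0.612) and in replicates 2 and 3 alone (0.288). LACTB2, a nuclease gene, had the largest rise of the genes named, 0.45, and FASTKD2 and DHX30, of the mitochondrial RNA granules, fell by 0.40 and 0.37.

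The 2 rRNAs were almost absent from the files. MT-RNR2 (ENSG00000210082.2) was listed at 0 in all 6 libraries. A count of 0 allows up to 0.0832 to 0.128 CPM in replicates 2 and 3 (3 counts per library, counting error only). Here CPM is of library totals, without TMM factors. This limit takes a listed 0 as a measured 0, which was not tested, and none is given for the replicate 1 libraries, where many non-coding genes are listed at 0. MT-RNR1 (ENSG00000211459.2) had 1 count in control replicate 3 and in RUVBL1 siRNA replicates 2 and 3, and 0 in the other libraries. No comparison of rRNA could be made at these counts. The sources used here do not say whether or how rRNA was removed.

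Of the 22 tRNAs, 15 had a count in some library and 7 had none. All 22 were listed at 0 in replicate 1 of both groups. They summed to 158 and 165 counts in control replicates 2 and 3 and to 111 and 96 in RUVBL1 siRNA replicates 2 and 3. The tRNA counts given here are not scaled to library size, and these control libraries had larger totals than the siRNA libraries. Per library total, replicate 2 hardly differed, with tRNAs at 0.000438% of the control counts and 0.000432% of the siRNA counts. For replicate 3 the share was lower after RUVBL1 siRNA (0.000408%) than in the control (0.000550%). MT-TA (ENSG00000210127.1), the alanine tRNA, had 91 and 88 counts in the control libraries of those replicates and 51 and 59 after RUVBL1 siRNA. MT-TN (ENSG00000210135.1), the asparagine tRNA, had 19 and 26, then 22 and 15. MT-TS1 (ENSG00000210151.2), a serine tRNA, had 23 and 20, then 15 and 5. These 3 held 81.9% of the 530 tRNA counts and were the ones that passed the filter on low counts. Their sequences are shown with the anticodon, located as the middle of a 7-base loop closed by 5 paired bases, in capitals (GENCODE 29, as the tRNA reads).
MT-TA: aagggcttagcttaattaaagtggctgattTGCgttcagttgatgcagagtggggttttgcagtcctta
MT-TN: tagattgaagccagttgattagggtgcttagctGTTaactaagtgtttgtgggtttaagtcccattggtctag
MT-TS1: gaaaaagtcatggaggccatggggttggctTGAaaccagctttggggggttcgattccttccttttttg

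Each of the 3 is encoded on the strand of MT-ND6, as is MT-TE, the glutamate tRNA, the only other one to reach 10 counts in a library (12, in control replicate 3). The 8 tRNAs on that strand held 92.8% of all tRNA counts, and none of the 14 on the opposite strand had more than 4 counts in a library. Whether these counts are tRNAs, precursors or other RNA over these genes cannot be told from gene counts. In edgeR 0 of the 3 tested tRNAs were called, against 42.2% of all tested genes in either direction, and 0 had an unadjusted p under 0.05 in edgeR, DESeq2 or limma-voom. With the zeros in replicate 1, the SEs of their log2 fold changes were 1.48 to 1.90, so that changes of the size seen in the mRNAs were not detectable. In replicates 2 and 3 alone the 3 were not called either (edgeR adjusted p = 0.137 for MT-TA, 0.964 for MT-TN and 0.168 for MT-TS1). In that fit 24.2% of all tested genes were called lower.

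**Figure D5:**
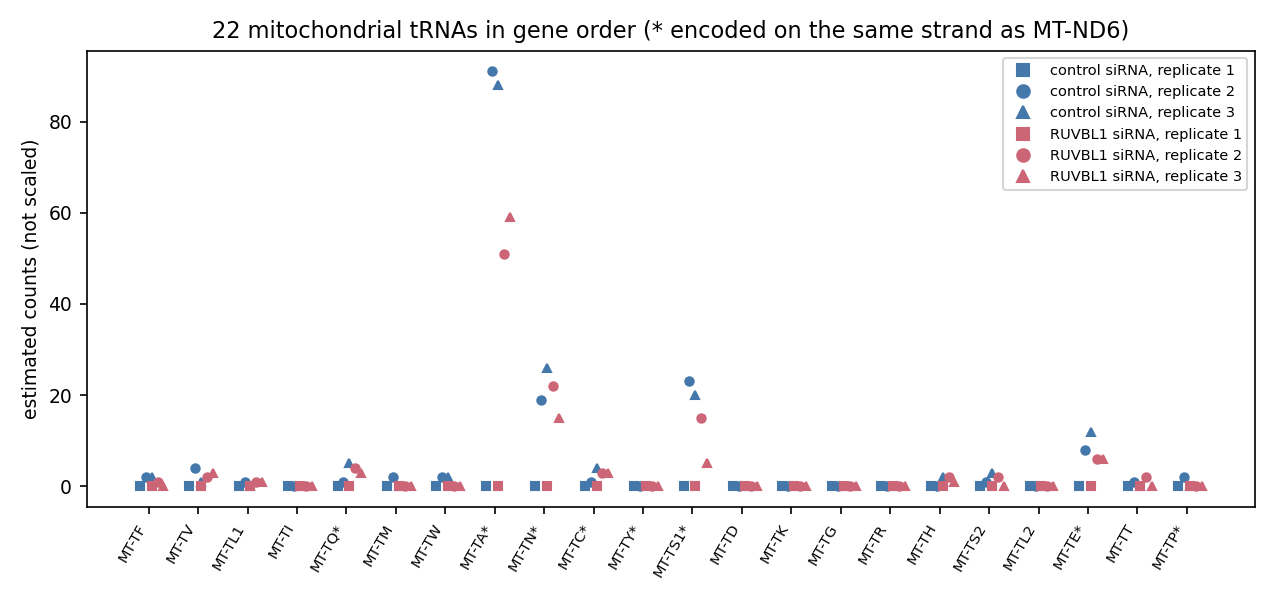
Estimated counts, not scaled to library size (y axis), of the 22 mitochondrial tRNAs in gene order, 1 point per library, with an asterisk for genes on the strand of MT-ND6. MT-TA stands out with 51 to 91 counts in replicates 2 and 3, and all replicate 1 values (squares) are 0.

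Nuclear copies of mitochondrial genes can take or lend counts. Of 389 such pseudogenes, 68 had a count, and together they held 0.741% as many counts as the mitochondrial genes. MTCO1P12 held 93.4% of them, with 2.06%, 2.41% and 2.41% of the counts of MT-CO1 in the control libraries and 2.12%, 2.39% and 2.36% after RUVBL1 siRNA. Its gene model matched MT-CO1 at 98.7% of 1542 aligned bases, with 20 differences and identical runs of up to 245 bases. The 90-base stretch with the most differences shows how alike they are, with the 4 that differ in capitals.
MT-CO1: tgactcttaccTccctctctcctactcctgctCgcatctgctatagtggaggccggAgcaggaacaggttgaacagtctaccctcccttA
MTCO1P12: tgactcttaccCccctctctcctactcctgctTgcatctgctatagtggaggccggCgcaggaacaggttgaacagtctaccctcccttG
MTCO1P12 fell by 0.38, as MT-CO1 did (edgeR adjusted p = 0.0154). It was the only pseudogene called of 11 tested, where 23.1% of all tested genes were called lower, and its call was lost when control replicate 3 was left out. MTCO3P12, MTND4P12 and MTCO2P12, the next by counts, were not called, and replicate 1 was low for all 3: MTND4P12 had 13.02 counts in control replicate 1 against 366 and 330 in control replicates 2 and 3. With the replicate block, 6 of the 11 were called lower, against 25.6% of all tested genes. Only MT-CYB, MT-ND3 and MT-ND4L had whole-number counts in all libraries, while each of the other 10 mRNAs held a fractional count in some library.

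The replicate 1 libraries also differed in the balance of the mRNAs, alike in both groups. The share of MT-ATP8 in the mRNA sum differed by -13.4% between control replicate 1 and the mean of control replicates 2 and 3, and by -11.1% in the siRNA group. The differences were -10.2% and -5.91% for MT-ND4L, -5.85% and -4.83% for MT-ND6, and -5.36% and -5.43% for MT-ND3. These are the 4 shortest mRNA genes, at 207, 297, 525 and 346 bases. The 8 genes longer than MT-ATP6 (681 bases) differed by at most 2.57% in either group, and MT-ATP6 itself by -3.95% and -3.47%. In replicates 2 and 3 alone, all 13 mRNAs were called lower (24.2% of all tested genes were), with a median log2 fold change of -0.38.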

How the data were processed

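Total RNA of 6 libraries was analysed, with groups and replicate numbers from the labels. The values the authors deposited are estimated counts for each gene, with no scaling to library size. The submitters' processing notes name Bowtie 0.12.2 with mm8 and mm9, mouse builds that conflict with human cells and identifiers. The sources used here do not give the counter, human build, annotation, strand setting or filters, and coordinates are therefore left out. Symbols matched 51996 of 57820 genes. Lengths, strands, gene order and sequences came from GENCODE 29. Counts were rounded to whole numbers.

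All genes were fitted with R 4.3.3 and edgeR 4.0.16 (genes kept by filterByExpr, scaling by TMM, the quasi-likelihood test in its robust form, group as the only term, two-sided), adjusted by Benjamini-Hochberg over the 16006 genes kept, with a threshold of 0.05. Of the members, 16 were tested (13 mRNAs and 3 tRNAs) and 21 were not. The SE is the size of the log2 fold change divided by the square root of F. Shares and ratios were tested over libraries by exact permutation. The edgeR, DESeq2 and limma-voom fits, and the fit relative to the mRNA sum, were run on simulated independent counts without replicate effects. The permutation tests, shares, ratios and the replicate block were not. All 37 MT- genes were described, and of each nuclear list the 4 genes with the smallest p plus fixed regulators. Members and lists were chosen with earlier results of these data known.

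Same-numbered libraries correlated across tested genes in their deviations from the group means (0.939, 0.819 and 0.823). Without the genes at 0 in both replicate 1 libraries the values were 0.423, 0.192 and 0.220. Over all tested genes the numbers pair the libraries by this criterion. Over the 13 mRNAs alone they do not for replicate 2: its same-numbered value of 0.823 was below control 2 with siRNA 3 (0.910) and control 3 with siRNA 2 (0.867). The pairing comes from these values, not from the labels, and mostly sets replicate 1 apart, since replicate 2 of one group also correlated with replicate 3 of the other (0.807 and 0.817). Alternatives were DESeq2 1.42.0, limma-voom (limma 3.58.1), other scalings and filters, the replicate block, and leaving out libraries.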

Additional observations from a re-analysis of the deposited data

How the results depend on the processing

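The direction and the call of all 13 mRNAs held in each of 16 alternative fits. The highest adjusted p was 0.0427 in edgeR, for MT-ATP8 without control replicate 2. These fits reuse the same 6 libraries and are not independent of each other. Of all tested genes, 14.4% were called lower with total counts as the only scaling, 25.6% with the replicate block and 24.2% in replicates 2 and 3 alone. The number of genes called (5741 to 7837) and of nuclear list genes called (61 to 92) stayed within 1.5 times the main count, 0 tRNAs were called, and the share of counts and the ratios to nuclear subunits kept their direction in the alternatives run for each. With one library left out, the share fell by 2.12 to 2.31 percentage points. The number of the 13 mRNAs called relative to their sum was 6, and became 10 with the replicate block, 10 in replicates 2 and 3 alone and 5 to 8 with one library left out. MT-ND4L relative to the sum ranged from -0.080 to 0.00093 with one library left out, where the positive value came without control replicate 3. The sign of 2 tRNAs changed with the setting, while MT-TS1 stayed negative: MT-TN had -0.0083 with no low-count filter, and with one library left out MT-TN ranged from -0.61 to 0.77 and MT-TA from -0.96 to 0.19. Without a fit across all genes, the 6 calls relative to the sum cannot be reached, since the exact test of 3 against 3 libraries gives at least 0.1. The replicate block changed no call of an mRNA tested against all genes. The rRNAs and tRNAs are limited by low counts and by values listed at 0, whose cause was not tested, and 3 libraries in a group limit the rest.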
